A study of Caenorhabditis elegans with 12 samples.

Results

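The cytochrome P450 genes of *C. elegans* were followed across wild type (WT) and *alh-6(lax105)* worms at the L4 larval stage and in day 3 adults. A gene was taken as a member when its WormBase identifier carried, in the WBcel235 annotation, a symbol made of cyp, a hyphen and a number. This rule used no measured value and found 74 of the 46726 genes in the deposited table. All 74 are annotated as protein coding, and they fall into 25 subfamilies named by a number and a letter, such as *cyp-35A*.

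WT was the N2 Bristol strain, and the mutants carried the *lax105* allele of *alh-6* with N2 Bristol given as their strain. ALH-6 is the mitochondrial enzyme that oxidises 1-pyrroline-5-carboxylate to glutamate in proline catabolism. All worms were synchronised, fed OP50 *E. coli* and collected 48 hr (L4) or 120 hr (day 3 adult) after L1 larvae were placed on food, with 3 libraries in each of 4 groups. The mutant is 1 allele, carried by every cell, and each library pooled many whole animals, so tissues were not separated.

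Cytochrome P450 enzymes are heme-thiolate monooxygenases that insert 1 atom of oxygen into a lipophilic substrate, with electrons passed from NADPH by P450 reductase (EMB-8 in *C. elegans*). They hydroxylate fatty acids, sterols and foreign compounds, and in the worm many are expressed in the intestine, the main site of fat storage and detoxification. Several subfamilies, *cyp-35A* and *cyp-14A* among them, are known for induction by xenobiotics, whereas *cyp-31A* genes act with *emb-8* in making the lipid layer of the eggshell.

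Values were FPKM, fragments per kilobase of gene scaled to the size of the library, which allow levels of genes of unequal length to be compared. Each library held between 19248229 and 23575173 reads on genes. A gene was tested at 1 stage when it reached 1 FPKM in at least 3 of the 6 libraries compared, and it passed when the adjusted p of limma over all genes tested was below 0.05. Fold changes are on the log2(FPKM + 0.1) scale, which understates the change of genes with low values. The study describes its replicates as biological, whereas the labels only number the libraries of a group and do not say which came from separate cultures, and the p-values measure the spread between these libraries. The *alh-6* transcript was present in all 12 libraries, at 68.4, 70.3 and 70.5 FPKM in WT L4 and 60.9, 62.6 and 60.6 FPKM in *alh-6* L4 (adjusted p = 0.0637), and at 33.7, 33.9 and 31.8 against 34.8, 32 and 34.03 FPKM on day 3, so its level does not check the genotype labels.

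P450 genes were concentrated on chromosome V, which held 41 of the 74 (55.4%), whereas it holds 25.2% of the protein-coding genes in the table. Another 12 lie on chromosome II, 7 each on IV and X, 6 on III and 1 on I. Joined at gaps of at most 20 kb, 45 members formed 11 clusters. The largest cluster covers V:3936326-3972991 (WBcel235) and holds 10 genes of the *cyp-34A*, *cyp-35A* and *cyp-35B* subfamilies. A cluster at II:9779181-9807569 holds *cyp-13A1* to *cyp-13A8*, a cluster at III:3832591-3852080 holds *cyp-25A1* to *cyp-25A4*, and a cluster at X:13265041-13284197 holds *cyp-14A1* to *cyp-14A4*. Members of a cluster are often close copies of each other, and reads that match more than 1 copy could have been shared out or dropped by the counting, so values of close copies are uncertain. Exons of 24 members share bases with another annotated gene. Where strand is not used in counting, reads from such a pair cannot be told apart, and the strand setting is not given in the sources used here.

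A few genes carried much of the P450 signal, more so on day 3 than at L4. Summed over the 74 genes, FPKM was 298, 290 and 275 in the WT L4 libraries (287 ± 11.5, SD, n = 3) and 329, 324 and 323 in the *alh-6* L4 libraries (325 ± 3.45). On day 3 it was 532, 524 and 545 in WT (534 ± 10.3) and 538, 512 and 485 in *alh-6* (511 ± 26.6). The 3 mutant L4 libraries lay above the 3 WT libraries, whereas the day 3 groups overlapped, and every day 3 library lay above every L4 library. Under a median-ratio rescaling of the libraries the day 3 means changed order, to 466 in WT and 476 in *alh-6*, and the L4 means became 316 and 365. The 5 most abundant members held 34.9% of the sum in WT L4, 35.9% in *alh-6* L4, 60.1% in WT day 3 and 57.1% in *alh-6* day 3.

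The leading genes differed between stages. In WT L4 they were *cyp-37A1*, *cyp-31A2*, *cyp-35A2*, *cyp-35C1* and *cyp-31A3*, at mean levels from 21.7 down to 17.8 FPKM. Neighbours in this order did not differ beyond the spread of the libraries, since the library values of each gene overlapped those of the next. In *alh-6* L4 worms *cyp-35A2* led at 31.3 ± 0.671 FPKM (mean ± SD, n = 3), ahead of *cyp-37A1* at 28.98 ± 0.289, and *cyp-29A2* took the fifth place. Among day 3 worms of both genotypes the order was *cyp-31A2*, *cyp-31A5*, *cyp-31A3*, *cyp-35A2* and *cyp-44A1*. In WT day 3 their means ran from 94.2 ± 4.304 to 35.3 ± 1.17 FPKM, and in *alh-6* day 3 from 85.7 ± 6.97 to 31.6 ± 1.78 FPKM. *cyp-44A1*, the member related to mitochondrial P450s, shares 24 exon bases with *npp-24* on the same strand.

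**Figure D1:**
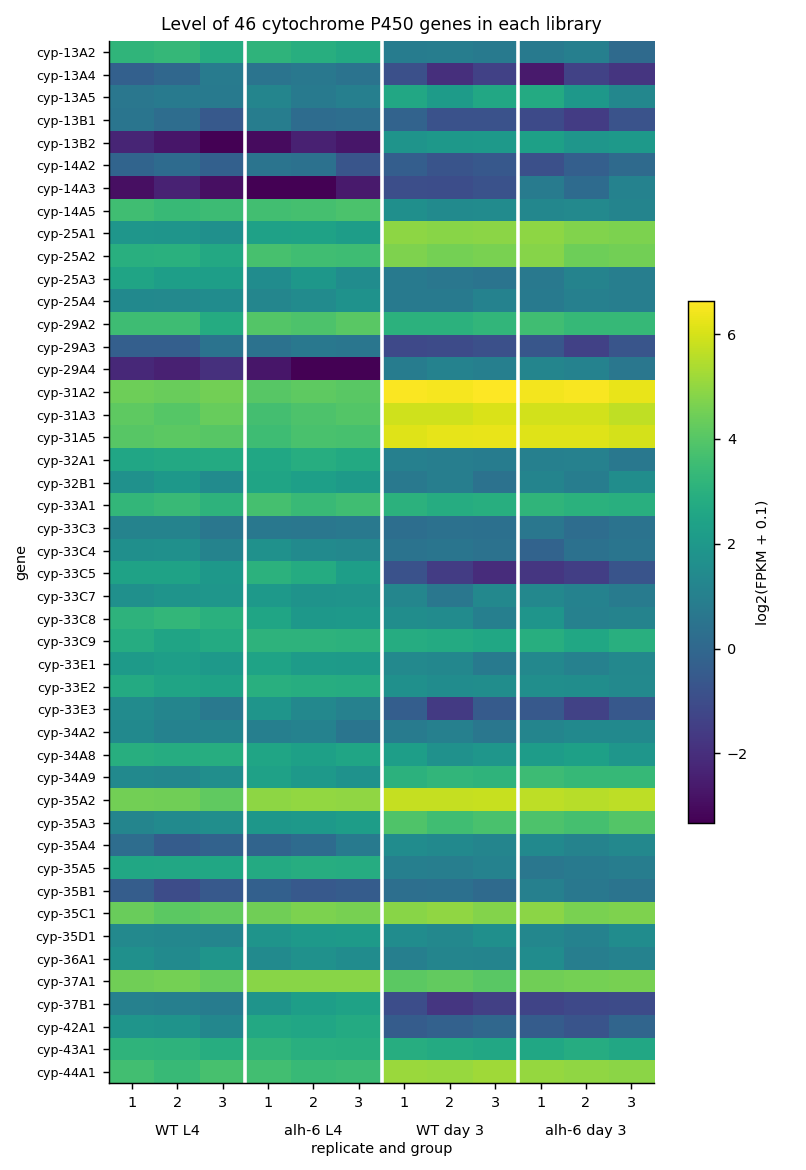
Level of each of the 46 P450 genes that entered a test (vertical axis, grouped by subfamily) in each of the 12 libraries (horizontal axis, by group), with colour giving log2(FPKM + 0.1). The *cyp-31A* genes, *cyp-25A1*, *cyp-25A2* and *cyp-35A2* are brighter on day 3 than at L4. The 28 genes that entered no test are not drawn.

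At the other end, many members were close to silent. Mean FPKM was below 1 for 35 members in WT L4, 32 in *alh-6* L4, 37 in WT day 3 and 36 in *alh-6* day 3, and it was 10 or more for 8, 11, 10 and 12 of them. *cyp-35B3* had no read in any of the 12 libraries. In all, 28 members entered no test, with a highest group mean of 0.803 FPKM (*cyp-13A11* in *alh-6* day 3), and 10 of these had under 30 reads over the 12 libraries. Most members of the *cyp-13A*, *cyp-34A* and *cyp-35B* clusters were among them, whereas 1 member or a few members of a cluster could be well expressed. In the *cyp-13A* cluster on chromosome II, for example, *cyp-13A2* was read at 8.93, 9.67 and 7.03 FPKM in WT L4, whereas *cyp-13A3* beside it was read at 0.227, 0.0865 and 0 FPKM.

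At L4, the comparison of *alh-6* with WT asks which P450 genes differ between mutant and WT larvae. Of 42 members tested, 15 passed (35.7%), 10 of them higher and 5 lower in *alh-6*. Over all 13851 genes tested, 15.3% passed, 8.19% higher and 7.15% lower. The members that rose belong to *cyp-35* (*cyp-35A2*, *cyp-35A3*, *cyp-35C1* and *cyp-35D1*), *cyp-25A* (*cyp-25A1* and *cyp-25A2*), *cyp-37* (*cyp-37A1* and *cyp-37B1*), *cyp-29A2* and *cyp-42A1*. Those that fell were *cyp-31A2*, *cyp-31A5*, *cyp-33C8*, *cyp-34A8* and *cyp-25A3*. The changes were small: only *cyp-37B1* and *cyp-42A1* passed at 2-fold or more, where 3.33% of all genes did (2.45% higher and 0.881% lower), and fold changes of the tested members ran from -0.92 to 1.20 on the log2 scale. Their median was 0.26, with 29 above 0 and 13 below, where the median of all genes tested was -0.04.

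*cyp-37B1* had the largest fold change among the members tested at L4. It and *cyp-42A1*, *cyp-29A2*, *cyp-37A1* and the *cyp-31A* genes belong to the CYP4 clan, whose mammalian members include fatty acid omega-hydroxylases. *cyp-37B1* (WBGene00009226, chromosome V) was measured at 1.99, 1.87 and 1.696 FPKM in the WT libraries against 3.45, 4.63 and 5.21 FPKM in the *alh-6* libraries (log2 fold change 1.20, standard error 0.19, adjusted p = 0.00387). The mutant libraries all lay above the WT libraries, though they were spread more widely. Its exons share 69 bases with the protein-coding gene F28G4.2 on the opposite strand.

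*cyp-42A1* (WBGene00013585, chromosome V) stood at 3.55, 3.32 and 2.36 FPKM in WT and, in *alh-6*, at 6.29, 5.89 and 6.59 FPKM (log2 fold change 1.02, standard error 0.18, adjusted p = 0.00551). WT replicate 3 was the lowest of the 6 libraries, and the groups did not overlap. *cyp-37A1* rose from 21.8, 23.6 and 19.7 to 29.2, 28.6 and 29.1 FPKM (log2 fold change 0.42, standard error 0.08, adjusted p = 0.0109). In WT larvae it had the highest mean of the members, within the spread of the next. Its mutant libraries lay within 1 FPKM of each other and above all WT libraries. *cyp-29A2* was at 11.4, 11.6 and 6.81 FPKM in WT libraries, and at 15.7, 14.4 and 16.9 in the mutant (log2 fold change 0.69, standard error 0.20, adjusted p = 0.0477). Here too WT replicate 3 was far below the other WT libraries, and the call was kept in 2 of the 6 fits that left out 1 library.

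The *cyp-35* genes include several that are induced by foreign compounds and some that take part in fat storage. *cyp-35A2* (WBGene00015400, chromosome V), the most abundant member in mutant larvae, was read at 22.6, 21.8 and 18.2 FPKM in the WT libraries against 30.7, 32.05 and 31.2 FPKM in the *alh-6* libraries (log2 fold change 0.59, standard error 0.09, adjusted p = 0.00361). All 3 mutant libraries exceeded all WT libraries by a margin wider than the range of either group. *cyp-35A3* was at 2.22, 2.59 and 2.88 against 3.71, 4.11 and 4.504 FPKM (log2 fold change 0.66, standard error 0.16, adjusted p = 0.0281). *cyp-35C1* was at 20.1, 17.5 and 18.6 against 21.9, 25.05 and 24.1 FPKM (log2 fold change 0.34, standard error 0.09, adjusted p = 0.0356). Neither pair of groups overlapped, but the margin was narrow for *cyp-35C1*. *cyp-35D1*, whose product hydroxylates the anthelmintic thiabendazole, was at 2.48, 2.37 and 2.19 FPKM in WT and, in *alh-6*, at 3.44, 3.97 and 4.21 FPKM (log2 fold change 0.70, standard error 0.16, adjusted p = 0.0191). Summed over its 5 members, *cyp-35A* stood at 30.5 ± 2.16 FPKM (mean ± SD, n = 3) in WT, beside 43.7 ± 1.49 FPKM in *alh-6*, while *cyp-35A4* and *cyp-35A5* did not pass and *cyp-35A1* was not tested. *cyp-35A5* was read at 6.06, 6.18 and 5.92 FPKM in WT libraries, and at 6.64, 7.21 and 7.03 in the mutant (adjusted p = 0.26).

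Neighbouring *cyp-25A* genes moved in opposite directions. *cyp-25A* belongs to the same clan as the mammalian drug-metabolising CYP3A enzymes. *cyp-25A2* was at 7.62, 7.86 and 6.33 FPKM in the WT libraries against 13.2, 11.7 and 11.6 FPKM in the *alh-6* libraries (log2 fold change 0.74, standard error 0.12, adjusted p = 0.00434). *cyp-25A1* was at 3.59, 3.59 and 3.06 against 5.14, 5.15 and 4.55 FPKM (log2 fold change 0.52, standard error 0.14, adjusted p = 0.039). *cyp-25A3*, in the same cluster, was instead at 5.56, 4.61 and 4.71 FPKM in WT and, in *alh-6*, at 2.79, 3.78 and 2.79 FPKM (log2 fold change -0.66, standard error 0.17, adjusted p = 0.0313). The groups of each of these genes were separate. *cyp-25A4*, the remaining gene of the cluster, was read at 2.53, 2.48 and 2.74 and 2.28, 2.66 and 3.25 FPKM, in overlapping groups (adjusted p = 0.836).

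Among the members that fell, *cyp-33C8* had the largest change. It was at 8.62, 9.42 and 7.76 FPKM in WT libraries, and at 5.7, 3.901 and 4.03 in the mutant (log2 fold change -0.92, standard error 0.17, adjusted p = 0.00727). Of the other 10 *cyp-33C* members, 5 were tested without passing and 5 were too low to be tested. Among the former, *cyp-33C9* stood at 7.098, 5.51 and 6.73 and 8.47, 8.53 and 8.26 FPKM (adjusted p = 0.0725). *cyp-34A8* was at 7.45, 7.05 and 7.25 against 5.63, 4.97 and 5.59 FPKM (log2 fold change -0.42, standard error 0.12, adjusted p = 0.0428), whereas its neighbour *cyp-34A9* was at 2.56, 2.33 and 2.93 against 5.01, 3.98 and 3.298 FPKM (adjusted p = 0.059).

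The eggshell P450s *cyp-31A2* and *cyp-31A3* are nearly identical in sequence, and reads shared by them could be assigned to either. *cyp-31A2* was at 21.3, 20.2 and 22.7 FPKM in the WT libraries against 16.4, 17.8 and 16.96 FPKM in the *alh-6* libraries (log2 fold change -0.32, standard error 0.08, adjusted p = 0.0299). *cyp-31A3* was at 17.9, 15.8 and 19.6 against 12.5, 14.3 and 15.4 FPKM and did not pass (log2 fold change -0.34, adjusted p = 0.0819). *cyp-31A5*, annotated with exons that share 101 bases with Y62E10A.19 on the opposite strand, was at 16.5, 17.3 and 16.6 against 11.5, 13.5 and 13.3 FPKM (log2 fold change -0.40, standard error 0.09, adjusted p = 0.0231). All 3 genes were lower in every mutant library than in every WT library. Their sum was 55.96 ± 2.76 FPKM in WT, beside 43.9 ± 3.07 FPKM in *alh-6*.

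**Figure D2:**
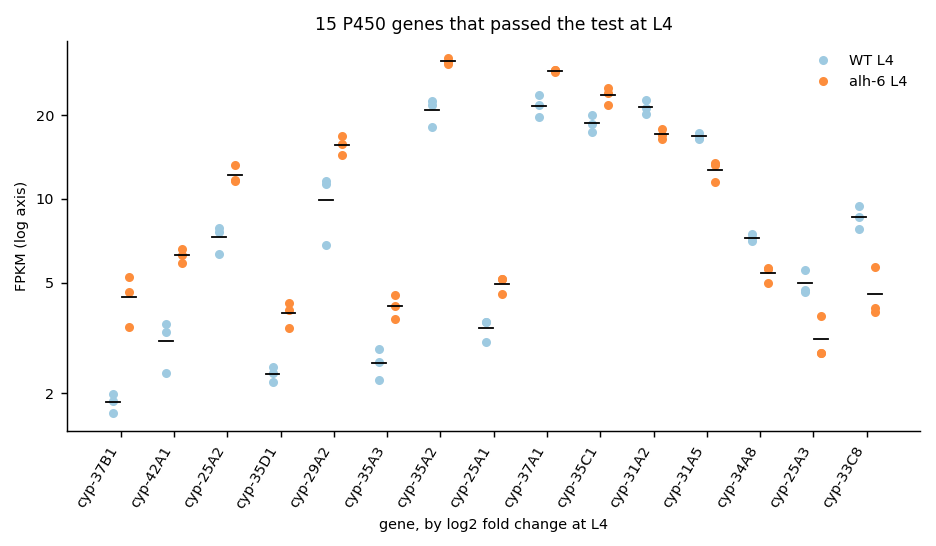
FPKM (log axis) in the 3 WT and 3 *alh-6* L4 libraries for the 15 P450 genes that passed at L4, ordered by log2 fold change. Points are libraries and horizontal bars are group means. The WT and *alh-6* points of each gene do not overlap, from *cyp-33C8* at -0.92 to *cyp-37B1* at 1.20. The genes were chosen by the test on these same libraries, so their separation is not further evidence. Some members that did not pass, such as *cyp-33C9* and *cyp-35A5*, were separate too.

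Marker genes of stage and tissue moved between the same L4 groups, and their part in the P450 differences was not tested. The lists were chosen with earlier results of these data known, so their counts are not independent evidence. Over all genes tested at L4, 8.19% were higher and 7.15% lower. All 10 genes of a molting-cycle list were higher in *alh-6* L4, with a summed level of 62.9 to 72.4 FPKM in WT, beside 163 to 205 FPKM in *alh-6*. All 10 oocyte and eggshell genes were lower, at 1657 to 1802 FPKM in WT, beside 1159 to 1251 FPKM in *alh-6*. Of 10 genes each, 5 epidermal and 3 intestinal genes were higher and 3 sperm genes lower, and 1 neuronal gene was higher. Summed epidermal levels were 1664 to 1929 FPKM in WT, beside 1925 to 2367 FPKM in *alh-6*, summed intestinal levels 5561 to 6620 and 6454 to 8153 FPKM, and summed sperm levels 758 to 815 and 580 to 677 FPKM. None of these markers was at 0 in an L4 group. In such bulk samples fewer cells of a type and less RNA per cell cannot be told apart, and here a difference in developmental timing between the collected larvae cannot be told apart from a difference of genotype at equal age.

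The L4 count fell whichever library was left out. Leaving out WT replicate 1, 2 or 3 left 7, 8 and 8 members, and leaving out *alh-6* replicate 1, 2 or 3 left 9, 9 and 8. *cyp-37B1*, *cyp-42A1*, *cyp-33C8*, *cyp-25A2*, *cyp-35A2* and *cyp-37A1* passed in all 6 of these fits. *cyp-25A1* and *cyp-34A8* passed in none of them, with adjusted p from 0.0573 to 0.118 and from 0.0671 to 0.138. The remaining 7 passed in 1 fit or in 2 fits. Without the filter on low values 8 of 73 members tested passed, and *cyp-34A8* did not pass under median-ratio rescaling (adjusted p = 0.0594). The shares of all genes that passed in these fits are not given here, so a loss particular to the members was not shown.

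In day 3 adults the same comparison found few differences. Of 38 members tested, 2 were higher in *alh-6* and 0 lower (5.26%), where 6.32% of 10501 genes passed, 2.14% higher and 4.18% lower, so that the share of members lay near that of all genes. At an unadjusted p under 0.05, 6 members were higher and 3 lower. limma-voom on the recovered reads tested 52 members and called 2 higher and 0 lower. The shares of all genes for these unadjusted and limma-voom calls are not given here, so the counts cannot be set against them. At 2-fold or more 1 member passed, where 0.819% of all genes did (0.409% higher and 0.409% lower). The median fold change of the tested members was 0.001 on the log2 scale, beside -0.08 for all genes tested, with 19 members on either side of 0.

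*cyp-37A1* was higher in the mutant on day 3 as it was at L4, at 17.4, 18.8 and 16.9 FPKM in WT and, in *alh-6*, at 21.8, 23.4 and 24.2 FPKM (log2 fold change 0.38, standard error 0.08, adjusted p = 0.0225). The groups did not overlap. It no longer passed without WT replicate 1 (adjusted p = 0.0943), WT replicate 3 (0.125) or *alh-6* replicate 2 (0.0783), nor without the filter on low values (0.0677). Its exons share 28 bases with F01D5.8 on the opposite strand. *cyp-14A3*, of the xenobiotic-responsive *cyp-14A* cluster, was at 0.419, 0.406 and 0.469 FPKM in WT libraries, and at 1.65, 1.02 and 2.01 in the mutant (log2 fold change 1.60, standard error 0.30, adjusted p = 0.014). These levels rest on a mean of 14 reads a library in WT and 47.3 in *alh-6*. It entered the test only because the 3 mutant libraries reached 1 FPKM, and it did not pass without WT replicate 3 (adjusted p = 0.056). Its exons share 76 and 99 bases with a pair of opposite-strand noncoding genes. The neighbours *cyp-14A1*, *cyp-14A2* and *cyp-14A4* had day 3 means of 0.668, 0.583 and 0.133 FPKM in WT, beside 0.408, 0.708 and 0.189 FPKM in *alh-6*, and none reached the filter.

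Of the 15 members that passed at L4, *cyp-37A1* alone also passed on day 3. *cyp-35A2* was at 53.99, 53.1 and 54.6 FPKM in the WT libraries against 50.1, 47.3 and 49.3 FPKM in the *alh-6* libraries (log2 fold change -0.14, standard error 0.06, adjusted p = 0.162), so that the order of the groups was the opposite of that at L4. *cyp-25A2* was at 26.2, 23.5 and 24.6 against 28.01, 21.4 and 22.8 FPKM, in overlapping groups (adjusted p = 0.789). *cyp-31A2* was at 93.6, 90.1 and 98.7 against 86.8, 92.03 and 78.2 FPKM, also overlapping (adjusted p = 0.225). *cyp-37B1* and *cyp-42A1* were below 1 FPKM in every day 3 library and were not tested. The 9 body wall muscle markers tested were all higher in *alh-6* day 3 worms, the list of 10 summing to 391 to 462 FPKM in WT, beside 678 to 752 FPKM in *alh-6*, and their part in these values was not tested. In the other lists, 1 neuronal marker was higher on day 3 and 1 epidermal and 2 molting-cycle markers were lower. Over all genes tested on day 3, 2.14% were higher and 4.18% lower, and the lists were chosen with earlier results of these data known.

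**Figure D3:**
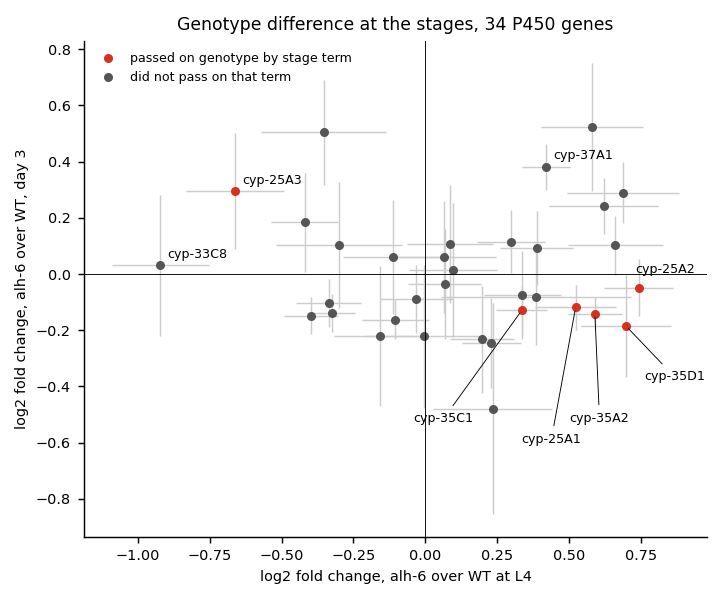
Genotype difference (log2 fold change, *alh-6* over WT) at L4 on the horizontal axis and on day 3 on the vertical axis, for the 34 P450 genes tested at both stages, with bars of 1 standard error. Red points passed on the genotype by stage term, *cyp-37A1* lies at 0.42 and 0.38, and *cyp-14A3* and *cyp-42A1* are not drawn because they were tested at 1 stage only.

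Whether the genotype difference changed between stages was tested with a genotype by stage term, the day 3 difference minus the L4 difference, fitted over all 12 libraries. Of 46 members tested, 8 passed (17.4%), 2 higher and 6 lower, where 7.38% of 14497 genes passed, 3.37% higher and 4.01% lower. At 2-fold or more, *cyp-14A3* passed higher and *cyp-42A1* lower, where 2.91% of all genes passed (0.966% higher and 1.95% lower). The 6 lower members were *cyp-35A2*, *cyp-35C1*, *cyp-35D1*, *cyp-25A1*, *cyp-25A2* and *cyp-42A1*, each of which was higher in the mutant at L4. *cyp-25A3*, lower in the mutant at L4, and *cyp-14A3*, higher on day 3, made up the other direction. Marker genes moved on the same term, of 10 tested in each list: all 10 molting-cycle, 4 epidermal and 3 intestinal markers were lower, and 8 oocyte and eggshell and 7 body wall muscle markers were higher. These lists were chosen with earlier results of these data known, and their part in the P450 terms was not tested. Both tests use the same L4 libraries, so the 7 members that passed at L4 and on this term are not independent evidence of a change.

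*cyp-35A2* had the smallest adjusted p of the members on this term (term -0.73, standard error 0.11, adjusted p = 0.00185), and with *cyp-25A2* (term -0.79, standard error 0.16, adjusted p = 0.0125) and *cyp-25A1* (term -0.64, standard error 0.14, adjusted p = 0.0167) it passed in all 12 fits that left out 1 library. For *cyp-25A1* the library values were 30.4, 29.2 and 29.8 FPKM in WT day 3 and 30.3, 26.8 and 25.4 FPKM in *alh-6* day 3, higher in both genotypes than at L4. *cyp-42A1* (term -1.22, standard error 0.31, adjusted p = 0.0336) was at 0.638, 0.759 and 0.897 FPKM in WT day 3 and 0.635, 0.504 and 0.848 FPKM in *alh-6* day 3. Those groups overlapped, unlike its L4 groups. It was tested on this term only through its L4 libraries, where it is high. *cyp-35D1* (term -0.88, standard error 0.23, adjusted p = 0.0378) was at 2.74, 2.41 and 2.99 against 2.35, 2.01 and 2.79 FPKM on day 3. *cyp-35C1* (term -0.46, standard error 0.13, adjusted p = 0.0426) was at 28.7, 31 and 27.7 against 29.6, 24.3 and 26.2 FPKM on day 3. *cyp-25A3* (term 0.96, standard error 0.25, adjusted p = 0.0378) was at 1.56, 1.45 and 1.305 against 1.53, 2.07 and 1.79 FPKM on day 3, the opposite order of means to that at L4. These 4 genes passed in 2 or 3 of the 12 fits that left out 1 library, with adjusted p up to 0.0962, and *cyp-35C1* did not pass under median-ratio rescaling (adjusted p = 0.0501). Leaving out 1 library left 3 to 6 members in all, and 4 passed without the filter on low values. The shares of all genes in those fits are not given here.

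*cyp-14A3* had the largest term (term 1.95, standard error 0.45, adjusted p = 0.0218). Its L4 values were 0.0311, 0.0946 and 0.0331 FPKM in WT and, in *alh-6*, at 0, 0 and 0.0633 FPKM, or 5 and 2 reads in all, so that the term rests on the day 3 libraries and on the pseudocount. It was tested only because the 3 *alh-6* day 3 libraries, where it is high, reached 1 FPKM. With a pseudocount of 0.01 the adjusted p was 0.144, and without WT day 3 replicate 1 or 2 it was 0.0556 and 0.0522. *cyp-37A1* gave a term of -0.04 (standard error 0.11, adjusted p = 0.888). The other members that passed at L4 did not pass on the term, with adjusted p between 0.0888 (*cyp-35A3*) and 0.369 (*cyp-29A2*), so a change between stages was not shown for them.

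**Figure D4:**
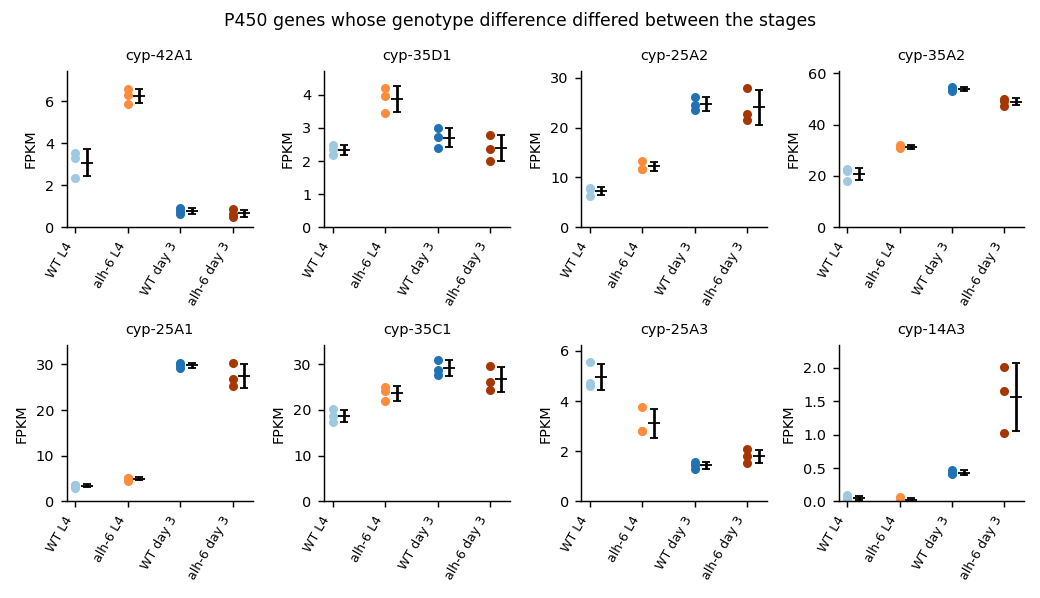
FPKM of the 8 P450 genes that passed on the genotype by stage term, 1 panel a gene, in WT and *alh-6* libraries at L4 and on day 3. Points are libraries, and the marks beside them are group means with bars of 1 SD. *cyp-35A2* goes from separate groups at L4 to the opposite order on day 3, where the difference did not pass. *cyp-14A3* lies near 0 at L4 in both genotypes.

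Between stages, most P450 genes passed in either genotype, at a share near that of all genes. Of 46 members tested, 40 passed between day 3 and L4 in WT (87.0%), 16 higher and 24 lower on day 3, where 89.0% of 14497 genes passed, 37.2% higher and 51.8% lower. In *alh-6*, 40 passed, again 16 higher and 24 lower, where 89.7% of all genes passed, 36.4% higher and 53.2% lower. At 2-fold or more, 28 members passed in WT (14 higher and 14 lower) where 64.2% of all genes did (21.7% and 42.5%), and 27 in *alh-6* (13 higher and 14 lower) where 65.9% did (22.3% and 43.6%). The median fold change was -0.44 for the members and -0.52 for all genes in WT, and -0.40 and -0.61 in *alh-6*. Median-ratio rescaling moved the medians of all genes to -0.88 and -0.91 and those of the members to -0.77 and -0.67, so changes between stages are relative to such a shift. It turned the sign of *cyp-33C9* and *cyp-35D1* in WT and of *cyp-35C1* in *alh-6*, none of which had passed. The WT and *alh-6* stage differences are taken between separate libraries. Both come from 1 fit of all 12 libraries with a shared estimate of the spread, so their calls are not independent. They also use the libraries of the genotype comparisons.

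The subfamilies took different courses with stage. The *cyp-31A* sum was 55.96 ± 2.76 FPKM in WT L4 and 232 ± 11.3 FPKM in WT day 3, and all 3 genes rose in both genotypes. *cyp-31A5* went from 16.5, 17.3 and 16.6 to 70.8, 76.1 and 78.6 FPKM in WT (log2 fold change 2.15, standard error 0.08, adjusted p = 1.53e-11) and from 11.5, 13.5 and 13.3 to 69.7, 70.8 and 63.1 FPKM in *alh-6* (log2 fold change 2.40, standard error 0.08, adjusted p = 5.1e-12). The 10 oocyte and eggshell markers rose in both genotypes, where 37.2% of all genes tested were higher in WT and 36.4% in *alh-6*. That list was chosen with earlier results of these data known, and its part was not tested. The *cyp-25A* sum went from 18.2 ± 1.27 to 57.7 ± 1.895 FPKM in WT. Within it *cyp-25A1* rose from 3.59, 3.59 and 3.06 to 30.4, 29.2 and 29.8 FPKM (log2 fold change 3.09, standard error 0.10, adjusted p = 7.19e-12), while *cyp-25A3* fell from 5.56, 4.61 and 4.71 to 1.56, 1.45 and 1.305 FPKM (log2 fold change -1.72, standard error 0.18, adjusted p = 6.99e-07).

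The *cyp-35A* sum was 30.5 ± 2.16 FPKM in WT L4 and 72.01 ± 1.86 FPKM in WT day 3. *cyp-35A3* rose from 2.22, 2.59 and 2.88 to 14.6, 11.97 and 13.4 FPKM in WT (log2 fold change 2.33, standard error 0.13, adjusted p = 1.19e-09), and *cyp-35A5* fell from 6.06, 6.18 and 5.92 to 1.86, 1.802 and 2 FPKM (log2 fold change -1.63, standard error 0.13, adjusted p = 4.13e-08). Thus members of 1 subfamily, in different clusters of chromosome V, went in opposite directions. The *cyp-33C* sum fell from 28.3 ± 2.07 to 14.4 ± 0.929 FPKM. *cyp-33C5* had the largest log2 fall of the members tested, from 5.28, 5.27 and 3.85 to 0.472, 0.244 and 0.143 FPKM in WT (log2 fold change -3.74, standard error 0.35, adjusted p = 2.26e-07) and from 8.303, 6.92 and 4.702 to 0.197, 0.257 and 0.508 FPKM in *alh-6* (log2 fold change -4.03, standard error 0.35, adjusted p = 9.82e-08). It reached 1 FPKM at L4 only, so it was tested only through the stage where it is high. Its neighbour *cyp-33C7* fell less in WT, from 3.103, 3.47 and 3.61 to 2.27, 1.43 and 2.42 FPKM (log2 fold change -0.74, standard error 0.21, adjusted p = 0.00446).

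Some members were nearly absent at L4. *cyp-13B2* and *cyp-29A4* reached 1 FPKM on day 3 only, so they were tested only through the stage where they are high. *cyp-13B2* was at 0.105, 0.0534 and 0 FPKM in WT L4 and 3.49, 3.89 and 4.09 FPKM in WT day 3, a rise also seen in *alh-6*, from 0.0237, 0.08702 and 0.0537 to 4.93, 3.598 and 4.07 FPKM. Fitted log2 fold changes were 4.74 and 4.80, but with 6 reads at L4 in each genotype they depend on the pseudocount. Per read on genes, day 3 held 71.0 times as many *cyp-13B2* reads as L4 in WT, with an exact 95% counting interval of 32.4 to 195, and 79.6 times as many in *alh-6* (36.3 to 218). *cyp-29A4* was at 0.119, 0.0904 and 0.158 FPKM in WT L4 and 1.73, 2.03 and 1.85 FPKM in WT day 3, with a ratio of reads of 15.3 (8.58 to 30.2). In *alh-6* L4 it had 2 reads in all, and the ratio was 94.5 (25.8 to 786). *cyp-14A3* gave a ratio of 8.14 (3.22 to 26.3) in WT and of 75.4 (20.5 to 629) in *alh-6*. These intervals cover counting error only. On the genotype by stage term, *cyp-29A4* (term 0.92, adjusted p = 0.161) and *cyp-13B2* (term 0.06, adjusted p = 0.951) did not pass.

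Among the members that fell with stage were *cyp-37B1* and *cyp-42A1*, which had the largest genotype differences at L4. Both reached 1 FPKM at L4 only, so they were tested only through the stage where they are high. *cyp-37B1* fell from 3.45, 4.63 and 5.21 to 0.307, 0.361 and 0.386 FPKM in *alh-6* (log2 fold change -3.31, standard error 0.24, adjusted p = 1.6e-08) and from 1.99, 1.87 and 1.696 to 0.413, 0.2 and 0.268 FPKM in WT (log2 fold change -2.34, standard error 0.24, adjusted p = 6.21e-07). *cyp-42A1* fell from 6.29, 5.89 and 6.59 to 0.635, 0.504 and 0.848 FPKM in *alh-6* (log2 fold change -3.08, standard error 0.22, adjusted p = 1.33e-08). *cyp-14A5*, which lies apart from the *cyp-14A* cluster, fell from 11.8, 10.3 and 11.3 to 3.01, 2.59 and 2.71 FPKM in WT (log2 fold change -1.97, standard error 0.11, adjusted p = 1.72e-09) and from 12.2, 12.97 and 14.02 to 2.34, 2.45 and 2.17 FPKM in *alh-6* (log2 fold change -2.44, standard error 0.11, adjusted p = 1.78e-10). In none of these genes did an L4 library overlap a day 3 library. Most tissue markers fell in the same comparisons: 9 of 10 intestinal, 9 of 10 epidermal, 8 of 10 neuronal, all 10 body wall muscle and all 10 sperm markers were lower on day 3 in each genotype. In WT the intestinal list summed to 5561 to 6620 FPKM at L4 and 1460 to 1551 FPKM on day 3, and the epidermal list to 1664 to 1929 and 74.6 to 83.9 FPKM. Over all genes tested, 51.8% were lower on day 3 in WT and 53.2% in *alh-6*. The lists were chosen with earlier results of these data known, and their part in the P450 falls was not tested. In WT, *cyp-13A2* (-2.26) and *cyp-33E3* (-1.95) were the other members with the largest falls, and in *alh-6* it was *cyp-13A4* (-2.46). *cyp-33E3* and *cyp-13A4* also reached 1 FPKM at L4 only.

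**Figure D5:**
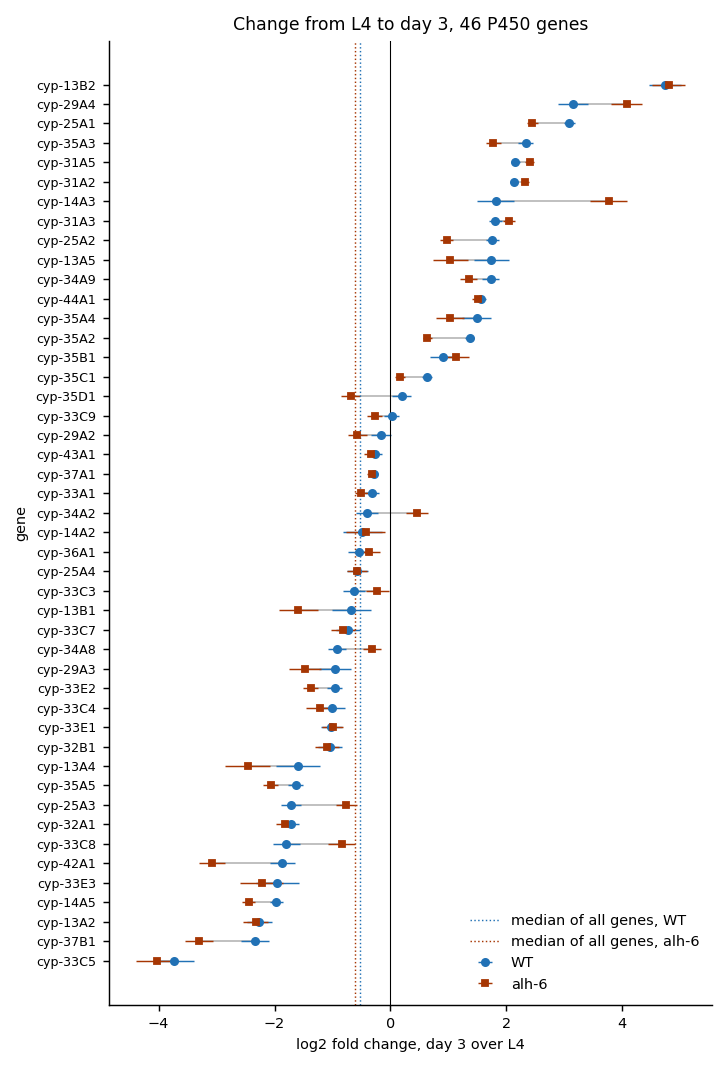
Log2 fold change of day 3 over L4 in WT and in *alh-6* for the 46 P450 genes tested, with genes on the vertical axis and bars of 1 standard error. *cyp-13B2* is the highest in both genotypes (4.74 and 4.80) and *cyp-33C5* the lowest (-3.74 and -4.03).

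The redox partners, heme transporters and transcriptional regulators of P450s were compared in the same way, as a list of 22 genes. At L4, 21 were tested, 1 was higher in *alh-6* and 0 lower, where 15.3% of all genes passed. At an unadjusted p under 0.05, 5 were higher and 0 lower, and limma-voom called 2 of 22 higher and 0 lower. The shares of all genes for these unadjusted and limma-voom calls are not given here. The gene that passed was *hrg-1*, a heme transporter, at 8.65, 8.15 and 7.52 FPKM in WT libraries, and at 11.4, 12.1 and 10.1 in the mutant (log2 fold change 0.46, standard error 0.11, adjusted p = 0.0282). The groups of *hrg-1* did not overlap. *emb-8*, the P450 reductase, was at 65.95, 70.2 and 63.1 FPKM in WT L4 and 72.6, 66.7 and 65.3 FPKM in *alh-6* L4, in overlapping groups (adjusted p = 0.745). On day 3 it was at 60.5, 65.8 and 67.8 against 67.8, 63.9 and 58.2 FPKM. *cytb-5.1*, which encodes a cytochrome b5, was at 139, 143 and 127 against 153, 165 and 156 FPKM at L4 (adjusted p = 0.0641).

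Of the regulators, *mdt-15*, a Mediator subunit needed for expression of xenobiotic and lipid genes, was at 67.04, 70.6 and 64.1 FPKM in WT L4 and 73.6, 70.9 and 70.3 FPKM in *alh-6* L4 (adjusted p = 0.355). *skn-1*, which encodes the Nrf-related factor of oxidative stress responses, was at 48.2, 50.6 and 46.6 against 46.7, 45.9 and 45.7 FPKM (adjusted p = 0.474), and *nhr-49*, a nuclear receptor of fat metabolism, at 37.9, 38.5 and 35.3 against 36.8, 39.4 and 35.3 FPKM (adjusted p = 0.983). None of these passed. *daf-9*, a P450 gene outside the naming rule that makes dafachronic acids, had group means of 1.27 and 1.43 FPKM at L4 and 0.389 and 0.216 FPKM on day 3. On day 3, 20 of the 22 were tested and 0 passed, where 6.32% of all genes did. At an unadjusted p under 0.05, 1 was higher and 1 lower, and limma-voom called 0 of 21. Here too the shares of all genes for the unadjusted and limma-voom calls are not given. On the genotype by stage term 1 of 21 passed, where 7.38% of all genes did. This was *vem-1*, a membrane-associated progesterone receptor homologue (term -0.47, standard error 0.11, adjusted p = 0.0201). It was at 31.3, 31.5 and 30.9 FPKM in WT L4 and 39.98, 37.9 and 34.1 FPKM in *alh-6* L4, and at 30.2, 28.9 and 32.96 against 24.8, 26.1 and 28.2 FPKM on day 3.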

How the data were processed

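RNA-seq was done on whole worms. Per the labels, the authors used CASAVA 1.8, Bowtie2 2.2.3, TopHat2 2.0.12, HTSeq 0.6.1 and DESeq 1.18.0 with build ce11, in steps whose settings are not given in the sources used here. The authors deposited FPKM per gene for each of the 12 libraries, which were the values tested. They also deposited signal values, gene counts divided by size factors, as group means in pairwise tables with their own fold changes and p-values. The group means were used to recover reads, whereas the deposited fold changes and p-values were not used.

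Symbols and positions came from the WBcel235 annotation. Whole reads were recovered from FPKM and the deposited group means, and 100.0% of the values above 0 came out whole within 0.01 reads. They gave the depth of each library, the input of limma-voom and the ratios of reads between stages. log2(FPKM + 0.1) was fitted with limma 3.58.1 (R 4.3.3, trend and robust variance, two-sided moderated tests, Benjamini-Hochberg over all genes tested). Each stage was fitted on its 6 libraries, and stage and genotype by stage on all 12, for genes at 1 FPKM in at least 3 libraries. The fits were tested on simulated data with changes of 2-fold or more planted in well-read genes. Recovery of smaller changes, or of changes in genes with few reads, was not simulated. Alternatives were pseudocounts of 1 and 0.01, no filter, median-ratio rescaling, limma-voom on recovered reads, a replicate block, a 2-fold minimum, 1 fit of all 12 libraries and leaving out each library. Genes were named if they passed, with the 5 largest changes each way for stage and the 5 highest levels in each group; neighbours, subfamily members and partner genes named beside them were chosen after their values were seen. The members and all lists (P450 partners and regulators, intestine, epidermis, neuron, body wall muscle, sperm, oocyte and eggshell, molt cycle) were chosen with earlier results of these data known.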

Additional observations from a re-analysis of the deposited data

Results flagged for a closer look

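The genotype difference differed between L4 and day 3, by the genotype by stage term of limma, for 8 P450 genes. In *cyp-35A2* the term (day 3 difference minus L4 difference, log2) was -0.73, in *cyp-25A2* -0.79 and in *cyp-25A1* -0.64. Each of these held in all 12 fits that left out 1 library. In *cyp-42A1* it was -1.22, in *cyp-35D1* -0.88 and in *cyp-35C1* -0.46, and each of these passed in only 3 of the 12 fits. *cyp-42A1* was tested only through its L4 libraries, where it is high. The mutant was higher at L4 for these 6 genes. In *cyp-25A3*, lower in the mutant at L4, the term was 0.96, and it passed in 2 of the 12 fits. *cyp-42A1*, *cyp-35D1*, *cyp-35C1* and *cyp-25A3* did not pass without the filter on low values or with a replicate block. In *cyp-14A3* the term was 1.95, with 5 reads in WT L4 and 2 in *alh-6* L4. This gene was tested only through the 3 *alh-6* day 3 libraries, where it is high, and with a pseudocount of 0.01 it did not pass (adjusted p = 0.144).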

How the results depend on the processing

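The stage counts, 40 in WT and 40 in *alh-6*, stayed within 1.5 times under each alternative, and the 5 members with the largest change each way in each genotype passed under each alternative that tested them. At L4, 15 members passed, but 8 without the filter on low values, 2 at 2-fold or more, and 7 to 9 with 1 library left out. On day 3, 2 passed, but 1 without the filter, 1 at 2-fold or more, 1 under median-ratio rescaling (*cyp-37A1*, since *cyp-14A3* was then not tested), and 0 to 2 with 1 library left out. On the genotype by stage term, 8 passed, but 4 without the filter, 2 at 2-fold or more, and 3 to 6 with 1 library left out, the fewest without *alh-6* day 3 replicate 2. The cause of these losses was not tested. Except at 2-fold or more, the shares of all genes under these alternatives are not given here. Summed P450 FPKM became 316 (WT L4), 365 (*alh-6* L4), 466 (WT day 3) and 476 (*alh-6* day 3) under rescaling. No named call changed direction under an alternative.

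Libraries of the same number did not deviate together (Pearson r across genes -0.001, -0.006 and 0.139 at L4 and -0.018, -0.041 and -0.053 on day 3). With a replicate block, 14 members passed at L4, 2 on day 3 and 4 on the genotype by stage term. The filter at 1 FPKM kept 28 members out of every test, and 10 of these had under 30 reads over the 12 libraries. limma-voom, with its minimum of 10 reads, tested 56 members on the 12 libraries in place of 46.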

Other observations

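Of the 28 members that entered no test because of their low level, some passed between stages when the filter on low values was dropped. *cyp-23A1* was at 0.767, 0.779 and 0.292 FPKM in WT L4 and 0.0284, 0 and 0.0259 FPKM in WT day 3 (log2 fold change -2.51, limma adjusted p = 4.55e-05), and it also fell in *alh-6* (-2.71, adjusted p = 2.25e-05). *cyp-13A11* was at 0, 0.0616 and 0 FPKM in WT L4 and 0.283, 0.488 and 0.486 FPKM in WT day 3 (2.12, adjusted p = 0.000112), and it rose in *alh-6* (1.93, adjusted p = 0.000232). *cyp-13A7* and *cyp-33C2* also rose in both genotypes. These levels rest on few reads, and the fold changes depend on the pseudocount. These genes were chosen after their values were seen.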
